A study of Mus musculus with 4 samples.

Results

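The genes described here encode the ligands and receptors of the tumour necrosis factor (TNF) superfamily, measured in mouse thymic epithelial cells (TECs) after loss of the homeobox transcription factor Meis1. They were chosen by name. They are the array rows, control spots left out, that are named Tnfsf or Tnfrsf with any number, or Tnf, Lta, Ltb, Ltbr, Cd40, Cd40lg, Cd27, Cd70, Fas, Fasl, Ngfr, Eda or Edar. This gave 44 genes on 61 probes, of 41174 probes on the arrays, with 18 ligand genes and 26 receptor genes. Of these, 36 were tested among 16813 features, 1 probe for each gene.

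Meis1-CKO mice carried the tamoxifen-inducible K14-CreERT2 recombinase with both Meis1 alleles floxed (Meis1 fl/fl). Control mice carried the same recombinase with 1 floxed and 1 normal allele (Meis1 fl/+), and the labels call them WT. Mice of both groups were 3 weeks old at treatment and were given 3 daily injections of 1 mg of tamoxifen. CD45- EpCAM+ cells were sorted 4 days later, after magnetic depletion of cells bearing CD45 or Ter119. There were 2 Meis1-CKO pools and 2 control pools of 6 mice each, from 2 independent experiments, and each pool was hybridised to 1 single-colour (Cy3) array. The keratin 14 promoter that drives the recombinase is known to be active mainly in medullary TECs, whereas the sort took all EpCAM+ cells. The sources used here do not give the share of cells that lost Meis1. The control carries 1 floxed allele, so it is a heterozygote after tamoxifen where recombination occurred.

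TNF superfamily ligands are mostly trimeric proteins on the surface of lymphoid and myeloid cells, and some are shed. Their receptors signal through TRAF adaptors to NF-kappaB, or, in some receptors with a death domain, through FADD or TRADD to cell death or NF-kappaB. In the thymic medulla, RANK (Tnfrsf11a), CD40 and the lymphotoxin beta receptor (Ltbr) on TECs receive ligands from T cells, innate lymphoid cells and developing thymocytes, and mouse knockouts of these receptors or their ligands have fewer or less mature medullary TECs.

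A level here is the log2 signal of a probe relative to the 75th percentile of its array, and a difference is the log2 level of Meis1-CKO minus control. Levels of different probes are not compared, since probes differ in brightness for the same amount of RNA. Meis1-CKO 1 and control 1 lay on 1 slide and were scanned together (slide 1), as were Meis1-CKO 2 and control 2 (slide 2). The array of Meis1-CKO 2 stood apart, with correlations of 0.856 to 0.884 with the other arrays across all tested features, against 0.935 to 0.942 among the other arrays. The signal at the 75th percentile was 109 and 152 in Meis1-CKO 1 and 2, and 93.2 and 137 in control 1 and 2, and between 58.6% and 63.6% of spots were well above background. Meis1 itself read -0.44 and -2.08 in the Meis1-CKO pools and -0.12 and -0.91 in the control pools on its brighter probe. On its other probe it was dim in both Meis1-CKO pools and measurable in both control pools, at least 1.46-fold lower with the background treatment used here. The floxed exons are unknown here, so neither probe checks the labels. All 12 TEC markers were above background on all 4 arrays. Their summed level, as multiples of the 75th percentile, was 487 and 428 in Meis1-CKO 1 and 2, against 566 and 490 in control 1 and 2, and within slide 2 their median difference was -0.71, with 10 of 12 lower. The brightest Xist probe read 5.55 and 2.97 in Meis1-CKO 1 and 2 and 5.98 and 4.32 in control 1 and 2, and the Y-linked Eif2s3y read -5.77 and 2.79, against -1.69 and 1.15. These levels thus differed between pools of 1 group, and the sexes in each pool are not stated in the labels.

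None of the TNF superfamily genes tested was called. With a threshold of 0.05 on the adjusted p, limma called 0 of the 36 genes higher and 0 lower, where 0% of all 16813 features were called in either direction. The lowest adjusted p was 0.876, for Cd40lg, and the standard errors of the 36 differences ran from 0.44 to 1.43. At an unadjusted p under 0.05 there were 2 genes of 36, Cd40lg and Tnfsf18, against 2.77% of all features. Both were dim on both control arrays and entered the test through the Meis1-CKO pools alone, so this count supports nothing further. Among the 30 genes above background on all 4 arrays it was 0, against 139 of 14617 features. With the slide as a block limma again called 0 genes higher and 0 lower. There, 2 members and 658 features had an unadjusted p under 0.05. The number of arrays limits the precision, so a gene that is not called here has not been shown to be equal in both groups.

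Detection divided the members. The probe that stood for its gene was well above background on all 4 arrays for 30 of the 44 genes, 23 of them receptors and 7 ligands. The ligands that were tested but dim on some arrays were Cd40lg, Tnfsf18, Tnfsf14, Tnfsf10 and Eda, and the 1 such receptor was Tnfrsf19. The 8 genes not tested were the ligand genes Fasl, Tnfsf13b, Tnfsf15, Tnfsf4, Tnfsf8 and Tnfsf9, the mouse TRAIL decoy receptor gene Tnfrsf23 and its relative Tnfrsf26. Of these, Fasl, Tnfsf8 and Tnfrsf26 were above background on no array. Tnfsf13, which encodes APRIL, was measured only through a probe named for the readthrough transcript Tnfsf12-Tnfsf13.

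Over the 30 genes above background on all 4 arrays, 13 had a positive and 17 a negative difference, with a median of -0.13, against a median of -0.06 for the 14617 features of any kind that met the same condition. Within slide 1 the median of the 30 differences was 0.01, with 15 on each side of 0. Within slide 2 they had a median of -0.33, with 11 positive and 19 negative, where all features had a median of -0.11. A total of 25 of the 30 lay farther from 0 on slide 2, and the median size of the difference was 0.30 on slide 1 and 0.85 on slide 2. Among all features above background on all 4 arrays, 9427 of 14617 lay farther from 0 on slide 2, with median sizes of 0.32 and 0.53. The sign was the same on both slides for 12 genes (40.0%), 4 higher and 8 lower, where 45.7% of all features kept their sign, 19% higher and 26.7% lower.

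**Figure D1:**
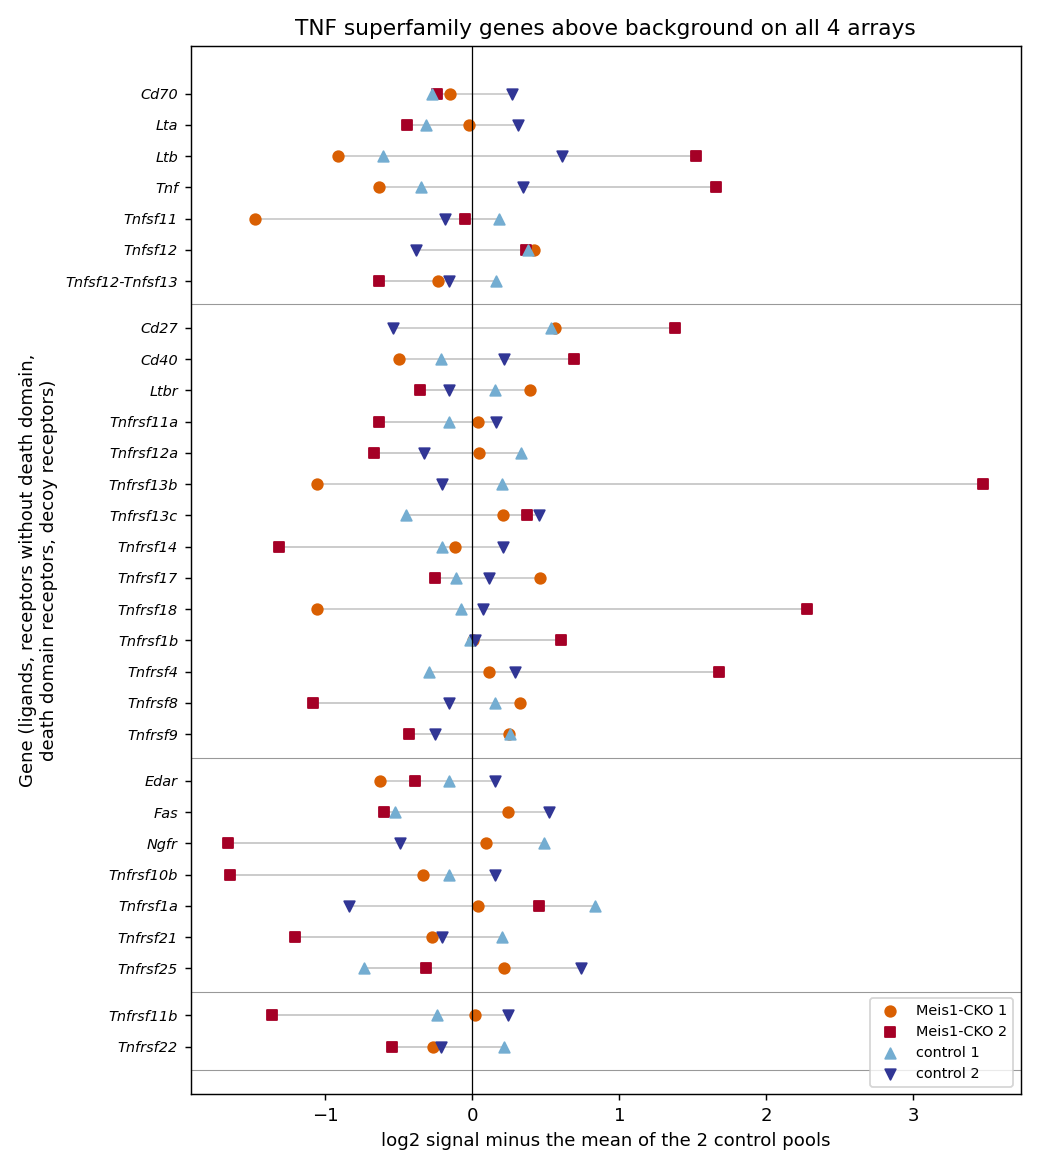
Log2 signal of each TNF superfamily gene above background on all 4 arrays, as the distance from the mean of the 2 control pools, with 1 point for each pool and genes grouped by role. Meis1-CKO 2 is the highest point in 8 rows and the lowest in 15.

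Meis1-CKO 2 was the highest of the 4 arrays for 8 of the 30 genes and the lowest for 15, as the plot of each gene against its control mean shows. Among all features above background on all 4 arrays it was the highest for 29.5% and the lowest for 37.3%. On the probe tested, both Meis1-CKO pools lay above both control pools for 1 gene, Cd27, and below both for 5, namely Tnfrsf10b, Tnfrsf21, Edar, Tnfsf12-Tnfsf13 and Tnfrsf22. The background was 9.68% of features above and 14% below, and the shares of the members were 3.33% and 16.7%. The pools themselves spread widely, with a median SD between the 2 pools of 0.55 in Meis1-CKO and 0.32 in control over the 30 genes. Repeated spots varied far less. For the 7 probes printed 10 times and above background on all 4 arrays, the SD of the 10 spots of an array was at most 0.24, with a median of 0.06.

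The receptors of medullary TEC differentiation were measured in every pool. Tnfrsf11a, which encodes RANK, read 5.07 and 4.39 in Meis1-CKO 1 and 2, and 4.87 and 5.19 in control 1 and 2. Meis1-CKO 1 lay between the controls and Meis1-CKO 2 below both, with a difference of -0.30 (SE 0.48, n = 2 pools each), 0.20 on slide 1 and -0.80 on slide 2. A second Tnfrsf11a probe had the same pattern, at 0.22 and -0.85. These probes lie at chr1:107743752-107743811 and chr1:107741397-107741456 (mm9, plus strand). Cd40 read -1.61 and -0.41 in the Meis1-CKO pools and -1.32 and -0.89 in the control pools. The Meis1-CKO pools lay on either side of both controls, and the difference was 0.10 (SE 0.57). Ltbr read 1.06 and 0.31 in Meis1-CKO, against 0.82 and 0.51 in control, and likewise enclosed the controls, with a difference of 0.02 (SE 0.49).

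The ligand and the decoy receptor of RANK were measured in every pool. Tnfsf11, which encodes RANK ligand, read -3.04 and -1.61 in Meis1-CKO 1 and 2 and -1.38 and -1.75 in control 1 and 2. It was lowest in Meis1-CKO 1, while Meis1-CKO 2 lay between the controls, with a difference of -0.76 (SE 0.61), -1.66 on slide 1 and 0.13 on slide 2. A second Tnfsf11 probe was above background on no array. Tnfrsf11b, which encodes osteoprotegerin, the soluble decoy receptor of RANK ligand, read 1.74 and 0.36 in Meis1-CKO and 1.48 and 1.96 in control. Only Meis1-CKO 2 lay outside the controls, and the difference was -0.67 (SE 0.61), 0.26 on slide 1 and -1.60 on slide 2.

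Cd40lg, which encodes the CD40 ligand, was well above background on both Meis1-CKO arrays and on neither control array. It read -2.67 and -3.06 in the Meis1-CKO pools, against -5.61 and -5.63 in the control pools, where the lowest signal well above background was -3.45 and -3.42. The groups did not overlap, and with the background treatment used here Meis1-CKO was at least 1.48-fold higher (limma adjusted p = 0.876). With normexp background correction the log2 difference was 0.25 (limma adjusted p = 1.0), against 2.75 from the dim control signals here, so the size depended on how the background was treated. The bound sets the mean of the Meis1-CKO arrays against those lowest measurable control signals, or against the dim signal itself where that was higher. It does not hold under normexp, where the difference was smaller. Its probe lies at chrX:54477066-54477125 (mm9, plus strand), a single spot on each array. Of all tested features, 1.83% were above background on both Meis1-CKO arrays and neither control array, and 0.773% the reverse; among the 36 members it was 2 and 0. Such genes entered the test through the Meis1-CKO pools alone and so had to differ, and these counts support nothing further.

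The other gene of this kind was Tnfsf18, which encodes the ligand of the receptor GITR. It read -2.64 and -3.07 in Meis1-CKO and -3.96 and -4.96 in control, at least 1.49-fold higher with no overlap (limma adjusted p = 1). With normexp its log2 difference was 0.21, against 1.60 here, so this bound too applies only to the background treatment used here. The lowest signal well above background was -3.78 and -3.74 on the Meis1-CKO arrays. Its neighbour Tnfsf4, which encodes the ligand of OX40, was above background on Meis1-CKO 2 alone and was not tested; it read -5.07 and -3.37 in Meis1-CKO, against -5.76 and -5.68 in control.

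The lymphotoxin and TNF genes lie beside each other on chromosome 17 within 7.2 kb of probe positions. Ltb, the membrane anchor of lymphotoxin, read -0.38 and 2.06 in Meis1-CKO 1 and 2 and -0.07 and 1.14 in control 1 and 2, with a difference of 0.30 (SE 0.92). Tnf read -1.02 and 1.27 in Meis1-CKO and -0.74 and -0.04 in control, with a difference of 0.51 (SE 0.84). Both were highest in Meis1-CKO 2 and lowest in Meis1-CKO 1. Lta, which encodes lymphotoxin alpha, read -0.09 and -0.51 in Meis1-CKO and -0.38 and 0.25 in control, and was lowest in Meis1-CKO 2, with a difference of -0.23 (SE 0.48). So the 3 neighbours did not go the same way, with slide 2 differences of 0.91 for Ltb, 1.31 for Tnf and -0.76 for Lta.

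Tnfsf14, which encodes LIGHT, a further ligand of the lymphotoxin beta receptor, read -2.98 and -1.46 in Meis1-CKO and -3.97 and -2.75 in control. Of the control arrays, 1 was above background, and Meis1-CKO 1 lay below control 2, so the groups overlapped. Its difference was 1.14 (SE 0.72), 1.00 on slide 1 and 1.29 on slide 2. Cd70, the ligand of CD27 and the neighbour of Tnfsf14, read -1.65 and -1.73 in Meis1-CKO and -1.77 and -1.22 in control. Both Meis1-CKO pools lay between the controls, and the difference was -0.20 (SE 0.45).

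Promoter sequences of 5 genes are shown because they include the ligand genes Tnfsf18 and Tnfsf14, which read higher in Meis1-CKO, Tnfrsf13b, which had the largest difference on slide 2, and RANK and TNF, which held neither motif searched. The set was chosen after the motif search, and Cd40lg had no entry. Each is the 250 bases before the gene's start in RefSeq (GRCm38.p6), 5′ to 3′ on the gene's strand, at chr1:161494407-161494656 (plus) for Tnfsf18, chr17:57194182-57194431 (minus) for Tnfsf14, chr11:61126505-61126754 (plus) for Tnfrsf13b, chr1:105780473-105780722 (plus) for Tnfrsf11a and chr17:35202008-35202257 (minus) for Tnf. Capitals mark TGACAG, the core letters of the motif that MEIS proteins are known to bind, or GGGNNTTCC, letters of NF-kappaB sites, on either strand.
Tnfsf18: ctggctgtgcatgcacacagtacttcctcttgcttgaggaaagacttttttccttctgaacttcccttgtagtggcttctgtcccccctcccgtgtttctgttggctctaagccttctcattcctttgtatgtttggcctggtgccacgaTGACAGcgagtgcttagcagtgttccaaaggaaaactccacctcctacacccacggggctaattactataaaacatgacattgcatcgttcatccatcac
Tnfsf14: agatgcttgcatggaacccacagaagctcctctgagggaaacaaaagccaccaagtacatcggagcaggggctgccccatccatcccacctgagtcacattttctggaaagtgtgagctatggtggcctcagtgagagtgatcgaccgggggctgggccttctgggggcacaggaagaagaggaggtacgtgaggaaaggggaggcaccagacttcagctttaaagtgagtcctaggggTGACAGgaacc
Tnfrsf13b: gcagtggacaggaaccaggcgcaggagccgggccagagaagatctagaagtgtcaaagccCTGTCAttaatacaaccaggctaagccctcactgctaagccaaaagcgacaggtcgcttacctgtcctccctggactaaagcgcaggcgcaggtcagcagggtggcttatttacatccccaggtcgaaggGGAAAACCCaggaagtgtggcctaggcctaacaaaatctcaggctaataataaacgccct
Tnfrsf11a: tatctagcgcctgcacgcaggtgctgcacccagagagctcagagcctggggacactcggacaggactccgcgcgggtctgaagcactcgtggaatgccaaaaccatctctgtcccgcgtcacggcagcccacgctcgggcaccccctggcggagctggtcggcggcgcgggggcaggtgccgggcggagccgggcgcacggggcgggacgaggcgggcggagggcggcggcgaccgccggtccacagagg
Tnf: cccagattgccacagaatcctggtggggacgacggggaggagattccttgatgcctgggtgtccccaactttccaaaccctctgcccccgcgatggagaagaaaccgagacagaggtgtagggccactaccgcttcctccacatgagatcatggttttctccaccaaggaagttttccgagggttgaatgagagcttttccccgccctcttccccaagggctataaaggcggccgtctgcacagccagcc

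TGACAG was present once in the Tnfsf18, Tnfsf14 and Tnfrsf13b windows, beginning at positions -100, -11 and -190 from the start, and in Tnfrsf13b it lay on the opposite strand, so that CTGTCA is in capitals. Tnfrsf13b also held GGGNNTTCC, on the opposite strand at position -60. The RANK and TNF windows held neither. Of all 32851 promoter windows, 15.9% held TGACAG and 4.98% held GGGNNTTCC. Among 37 windows of the 33 member genes matched by symbol, 5 (13.5%) and 2 (5.41%) did. The windows of Tnfrsf13c (0.66 and -0.08 on slides 1 and 2) and Tnfsf15 (not tested) also held TGACAG and are not shown. That of Tnfrsf9, not shown either, held GGGNNTTCC. The choice of genes shown therefore says nothing about a link between motif and difference. A match describes letters in this window only.

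The receptors of TNF were both measured in every pool. Tnfrsf1a, which encodes the main receptor of TNF, with a death domain, read 1.11 and 1.53 in Meis1-CKO and 1.91 and 0.24 in control. The groups overlapped, with both Meis1-CKO pools between the controls, and the slides gave -0.80 and 1.29. Tnfrsf1b, the second TNF receptor, which has no death domain, read -1.51 and -0.92 in Meis1-CKO and -1.54 and -1.50 in control on the probe that was tested, with 0.02 on slide 1 and 0.59 on slide 2. Its other probe, printed 10 times, gave -2.88 and 0.01 in Meis1-CKO, against -2.82 and -2.90 in control, a difference of -0.05 on slide 1 and 2.91 on slide 2. Both probes placed Meis1-CKO 2 highest and disagreed on the size.

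The receptors with a death domain form 1 group here, and some of them can start apoptosis. Of 7, all above background on all 4 arrays, 6 had a negative difference and 4 were lower on both slides, with a median of -0.51 (-0.40 and -1.05 within slides 1 and 2). Tnfrsf10b was among these 4 on its tested probe only. The 7 ligands above background on all 4 arrays had a median of -0.20, the 14 receptors without a death domain 0.10, and both decoy receptors above background on all 4 arrays were below 0. These medians carry no test. Among all features above background on all 4 arrays, 55.6% had a negative difference and 26.7% were lower on both slides. The count of 6 changed with the arrays compared. Within slide 1, which does not hold Meis1-CKO 2, 5 of 7 were lower. With Meis1-CKO 1 set against both controls, 3 of 7 were below 0, Tnfrsf10b at -0.33, Tnfrsf21 at -0.28 and Edar at -0.63. In that comparison Fas stood at 0.24, Tnfrsf25 at 0.22, Ngfr at 0.09 and Tnfrsf1a at 0.04.

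Tnfrsf10b, the mouse receptor of the death ligand TRAIL, read 0.67 and -0.65 in Meis1-CKO, against 0.85 and 1.16 in control. The Meis1-CKO pools lay below both controls, with a difference of -0.99 (SE 0.59), -0.18 on slide 1 and -1.81 on slide 2. Its other probes had differences of -0.79 and -0.98, but on slide 1 they read 0.76 and 0.56 higher, and on both the groups overlapped. Tnfrsf21, which encodes death receptor 6, read -0.41 and -1.34 in Meis1-CKO and 0.07 and -0.33 in control, below both controls on both slides (-0.48 and -1.0), with an overall difference of -0.74 (SE 0.52). A second probe gave -1.06 and -0.82, and a further probe was above background on Meis1-CKO 2 alone. Edar, the ectodysplasin receptor of skin appendages, read -2.86 and -2.62 in Meis1-CKO, against -2.38 and -2.07 in control, with -0.47 and -0.54 on the slides.

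Fas, the receptor of Fas ligand, read 2.68 and 1.84 in Meis1-CKO 1 and 2 and 1.91 and 2.96 in control 1 and 2. The groups overlapped, the slides went opposite ways (0.77 and -1.12), and a 10-spot probe gave 0.27 and -1.21. Ngfr, the neurotrophin receptor p75, read 1.24 and -0.51 in Meis1-CKO and 1.64 and 0.66 in control. Meis1-CKO 2 was lowest, Meis1-CKO 1 lay between the controls, and the difference was -0.78 (SE 0.74). A dimmer Ngfr probe was not above background on control 1. Tnfrsf25, which encodes death receptor 3, gave 0.95 and -1.05 on the slides.

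The ligands of the TRAIL receptor and of Fas were not above background on every array. Tnfsf10, which encodes TRAIL, read -2.20 and -2.50 in Meis1-CKO and -1.49 and -3.70 in control, above background on 1 of 2 control arrays, and both Meis1-CKO pools lay between the controls. Fasl was above background on no array on either of its probes. It read -6.06 and -6.00 in Meis1-CKO and -5.72 and -5.59 in control on the first, and -5.84 and -4.63 in Meis1-CKO and -5.50 and -5.53 in control on the 10-spot probe. Tnfrsf22, one of the mouse decoy receptors of TRAIL, read -0.80 and -1.08 in Meis1-CKO, against -0.32 and -0.75 in control, lower on both slides (-0.48 and -0.33) with no overlap between the groups.

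TWEAK and its receptor were above background in every pool. Tnfsf12, which encodes TWEAK, read -1.10 and -1.15 in Meis1-CKO, against -1.14 and -1.90 in control, with a difference of 0.39 (SE 0.48). Only control 2 stood apart from the other pools. The readthrough probe of Tnfsf12-Tnfsf13 read 0.29 and -0.11 in Meis1-CKO, against 0.68 and 0.36 in control, with no overlap and -0.39 and -0.47 on the slides. Tnfrsf12a, the TWEAK receptor, read 0.93 and 0.22 in Meis1-CKO and 1.21 and 0.55 in control, with -0.28 and -0.34 on the slides, although Meis1-CKO 1 lay above control 2. Tnfsf13b, which encodes the B cell survival factor BAFF, was above background on 1 array of each group on its better probe and was not tested. That probe read -2.98 and -4.09 in Meis1-CKO, against -3.39 and -2.41 in control, and the other -5.13 and -3.40, against -4.17 and -3.81.

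Eda, the ectodysplasin ligand gene on the X chromosome, read -2.08 and -3.24 in Meis1-CKO and -1.41 and -3.54 in control, where it was above background on 1 of 2 arrays. The spread within each group was larger than the difference of -0.19 (SE 0.84). Tnfrsf19, which encodes the receptor TROY, read -1.84 and -3.83 in Meis1-CKO, where it was above background on 1 of 2 arrays, and -2.46 and -2.97 in control. The Meis1-CKO pools lay on either side of the controls.

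Cd27, Tnfrsf18 and Tnfrsf4 encode costimulatory receptors of lymphocytes, as does Tnfrsf9. Tnfrsf18, Tnfrsf4 and Tnfrsf13b were chosen for description after their values had been seen. Cd27, the receptor of CD70, read -1.38 and -0.57 in Meis1-CKO, against -1.41 and -2.48 in control. The Meis1-CKO pools lay above both controls, by 0.02 on slide 1 and 1.91 on slide 2, with a difference of 0.97 (SE 0.59). Tnfrsf18, which encodes GITR, read -0.52 and 2.81 in Meis1-CKO and 0.46 and 0.61 in control. The controls lay between a low Meis1-CKO 1 and a high Meis1-CKO 2 (-0.98 on slide 1, 2.20 on slide 2). Tnfrsf4, which encodes OX40, read -0.08 and 1.49 in Meis1-CKO and -0.48 and 0.11 in control, higher within both slides (0.41 and 1.38), although Meis1-CKO 1 lay below control 2.

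Tnfrsf13b, which encodes TACI, a receptor of BAFF and APRIL, had the largest slide 2 difference of the 30 genes. It read -3.13 and 1.40 in Meis1-CKO and -1.87 and -2.28 in control, so that Meis1-CKO 2 was the high array, with a difference of 3.68 on slide 2 and -1.26 on slide 1. Over both slides it differed by 1.21 (SE 1.43). A second Tnfrsf13b probe was above background on no array. Without Meis1-CKO 1, the array where it read lowest, its difference was 3.47, with Meis1-CKO 2 alone set against the controls. With 1 array in a group, that array is assumed to vary like the others, so a call from such a fit rests on that assumption.

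Of the 30 genes, 6 were at least 2-fold higher within slide 2 (Cd27, Tnf, Tnfrsf13b, Tnfrsf18, Tnfrsf1a and Tnfrsf4) and 7 at least 2-fold lower (Fas, Ngfr, Tnfrsf10b, Tnfrsf11b, Tnfrsf14, Tnfrsf21 and Tnfrsf25). The background was 9.84% of features higher and 14.2% lower. Tnfrsf14, which encodes the receptor HVEM of LIGHT, stood at -1.52 on slide 2 and 0.09 on slide 1. Within slide 1, 0 genes were 2-fold higher and 2 were 2-fold lower, Tnfrsf13b and Tnfsf11, where the background was 4.88% and 4.3%. The shares of members within slide 2 were 20.0% and 23.3%, and those within slide 1 were 0% and 6.67%. Of the 30, 11 were lower on slide 2 and higher on slide 1, and 7 were higher on slide 2 and lower on slide 1.

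**Figure D2:**
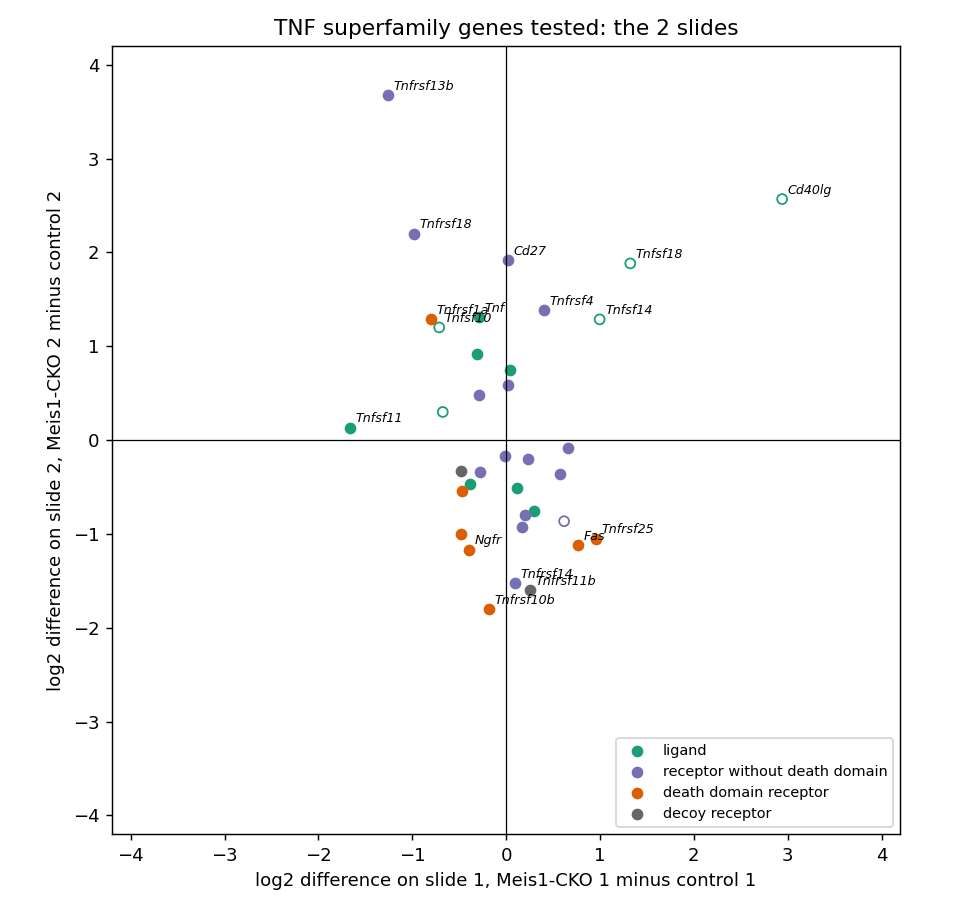
Log2 difference of each tested TNF superfamily gene on slide 1 (x axis) and slide 2 (y axis), coloured by role, with open circles for genes not above background on all 4 arrays. Points spread farther along the slide 2 axis than along the slide 1 axis, with Tnfrsf13b at the top left and Cd40lg, dim in both control pools, at the top right.

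Of the receptors not yet named, Tnfrsf13c, which encodes the BAFF receptor, gave 0.66 and -0.08 on slides 1 and 2, Tnfrsf17 (BCMA) gave 0.58 and -0.36, and Tnfrsf8 (CD30) gave 0.17 and -0.93. Tnfrsf9, which encodes 4-1BB, differed by -0.09 on its brightest probe (-0.01 and -0.17 on the slides). On another it differed by -0.73 (-0.97 and -0.49), with both Meis1-CKO pools below both controls. Both probes were above background on all 4 arrays. The genes not tested that were above background on some array were Tnfsf15 and Tnfsf4 on Meis1-CKO 2 alone, Tnfsf9 and Tnfrsf23 on 1 array of each group and Tnfsf13b likewise. Tnfsf8, the CD30 ligand, read -5.63 and -4.06 in Meis1-CKO, against -5.62 and -5.58 in control, all below background.

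Many TNF superfamily genes lie next to each other, and by probe positions on mm9 22 of the 44 genes fell into 9 clusters with gaps of at most 150 kb. Neighbours did not always share a direction. On chromosome 6, Cd27, Ltbr and Tnfrsf1a, within 129.4 kb, stood at 1.91, -0.20 and 1.29 on slide 2. On chromosome 4, Tnfrsf4 and Tnfrsf18, within 12.3 kb, were both higher on slide 2 (1.38 and 2.20), and on slide 1 they stood at 0.41 and -0.98. Tnfsf4 and Tnfsf18 on chromosome 1, within 86.8 kb, were read on dim signals, and Tnfsf4 was above background on Meis1-CKO 2 alone, so that it has no direction on slide 1.

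**Figure D3:**
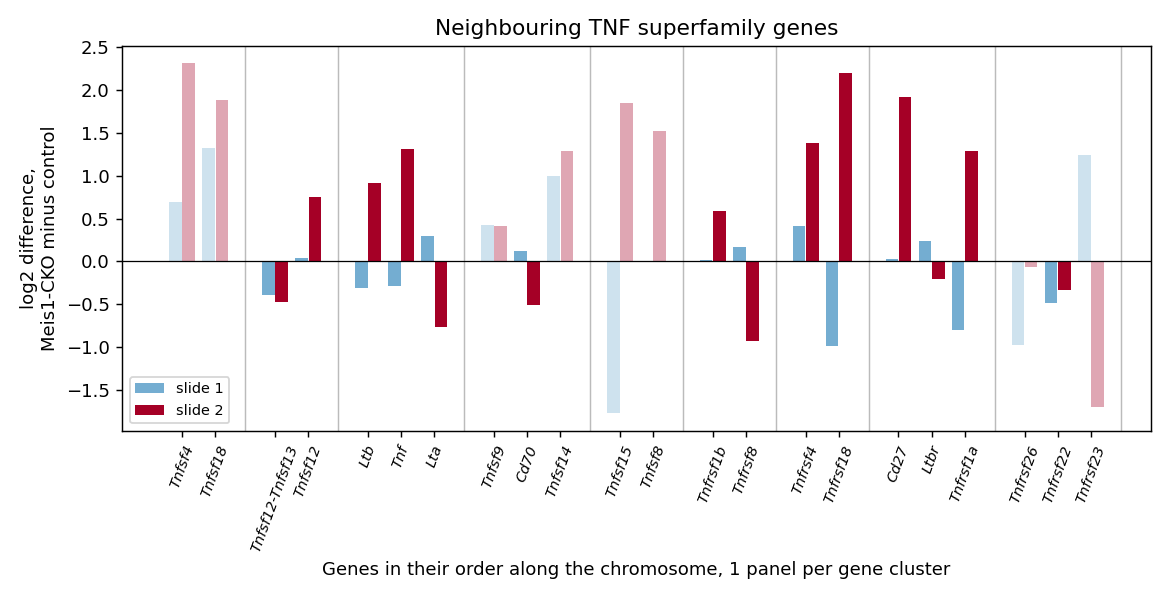
Log2 difference on slide 1 and slide 2 for the 22 TNF superfamily genes that lie in 9 chromosomal clusters, with 1 compartment for each cluster and paler bars where a gene was not above background on all 4 arrays. In the cluster of Ltb, Tnf and Lta the slide 2 bars stand at 0.91, 1.31 and -0.76.

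Other genes of the signalling pathway and the TEC genes that mouse studies tie to these receptors were followed as lists. Of 38 signalling genes tested (TRAF adaptors, death domain adaptors, kinases, NF-kappaB subunits and inhibitors, and the receptors Eda2r and Relt), limma called 0 higher and 0 lower, and 0 had an unadjusted p under 0.05. Their median difference was 0.07 (0.13 and -0.05 within slides 1 and 2), against -0.05 over all 16813 features. The 4 with the largest size were the NF-kappaB subunit gene Rel at 1.52 (1.08 and 1.97 on the slides), the adaptor gene Traf5 at 1.5 (0.31 and 2.69), the EDA-A2 receptor gene Eda2r at -1.39 (-0.55 and -2.23, above background on 1 of 2 Meis1-CKO arrays) and Traf1 at 1.09 (-0.08 and 2.26). In the noncanonical branch that RANK, CD40 and LTBR use, Relb stood at 0.01, Nfkb2 at -0.31, the kinase genes Map3k14 and Chuk at 0.32 and 0.20, and the inhibitory adaptor gene Traf3 at -0.27.

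Of 13 TEC genes that mouse studies tie to RANK, CD40 or lymphotoxin signalling, limma called 0 in either direction. None had an unadjusted p under 0.05. Their median was 0.07, and within slide 2 it was -0.25, with a median size of 2.06. All features above background on all 4 arrays had a median size of 0.53 within slide 2. Within slide 2, Ccl22 and Cd86 stood at 3.08 and 3.98 and Aire at -2.22, and within slide 1 the same genes stood at -0.44, -0.41 and 0.53. The dendritic cell and mature medullary TEC chemokine gene Ccl17 and the activation marker gene Cd83 stood at 0.38 and 0.12 on slide 1 and at 4.49 and 3.63 on slide 2. Without Meis1-CKO 2 their differences were -0.26 and 0.07, against 2.43 and 1.87 with all 4 arrays. Of 16 myeloid and dendritic cell markers, 14 were also higher within slide 2, and the part of such cells in the values of this list was not tested.

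Several markers of leukocytes were high in Meis1-CKO 2. Of 16 myeloid and dendritic cell markers, 13, 16, 10 and 12 were above background in Meis1-CKO 1, Meis1-CKO 2, control 1 and control 2. Their summed level, as multiples of the 75th percentile, was 34.9 and 111 in the Meis1-CKO pools and 29.5 and 37.3 in the control pools. Of these markers, 13 of 16 were highest in Meis1-CKO 2, as were Tnfrsf18, Tnfrsf13b, Tnfrsf4, Tnf, Ltb and Cd27. The part of such cells in those values was not tested. The 6 genes were picked from the 8 of 30 members highest there (26.7%), where 29.5% of all features above background on all 4 arrays were highest there. Ptprc, which encodes the CD45 that the depletion and the sort select against, read -0.75 and 5.55 in Meis1-CKO 1 and 2, against 1.44 and 1.19 in control 1 and 2. Of 16 thymocyte and T cell markers, 13 and 15 were above background in the Meis1-CKO pools and 13 and 14 in the control pools, with summed levels of 9.24 and 50.6, against 56.8 and 25.2, and Rag2 was below background on all 4 arrays. Of 5 B cell markers, 4 and 4 were above background, against 3 and 3, with summed levels of 1.23 and 1.33 in Meis1-CKO and 1.70 and 1.13 in control. Fibroblast markers had summed levels of 11.1 and 2.87 in Meis1-CKO and 10.6 and 6.36 in control, lowest in Meis1-CKO 2. The summed levels of the TEC and erythroid lists were lowest in that array too, at 428 and 0.57. Meis1-CKO 2 was also the lowest array for 15 of the 30 TNF superfamily genes, Tnfrsf11b and Tnfrsf10b among them. It was the lowest for 37.3% of all features above background on all 4 arrays. The part of any of these cell types in those values was not tested either. Of 6 innate lymphoid and 5 endothelial markers, 4 and 3 were above background in Meis1-CKO 1 and 5 and 3 in Meis1-CKO 2, against 4 and 3 in control 1 and 4 and 2 in control 2. The innate lymphoid list had summed levels of 4.78 and 10.1 in Meis1-CKO 1 and 2, against 5.65 and 3.76 in control 1 and 2. The endothelial list had 0.61 and 4.29, against 0.55 and 0.42. Both sums were highest in Meis1-CKO 2, although only 3 of 6 and 2 of 5 markers were higher within slide 2. Il17a and Tie1 of these lists were below background on all 4 arrays. In bulk RNA, fewer cells of a type and less RNA per cell cannot be told apart.

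**Figure D4:**
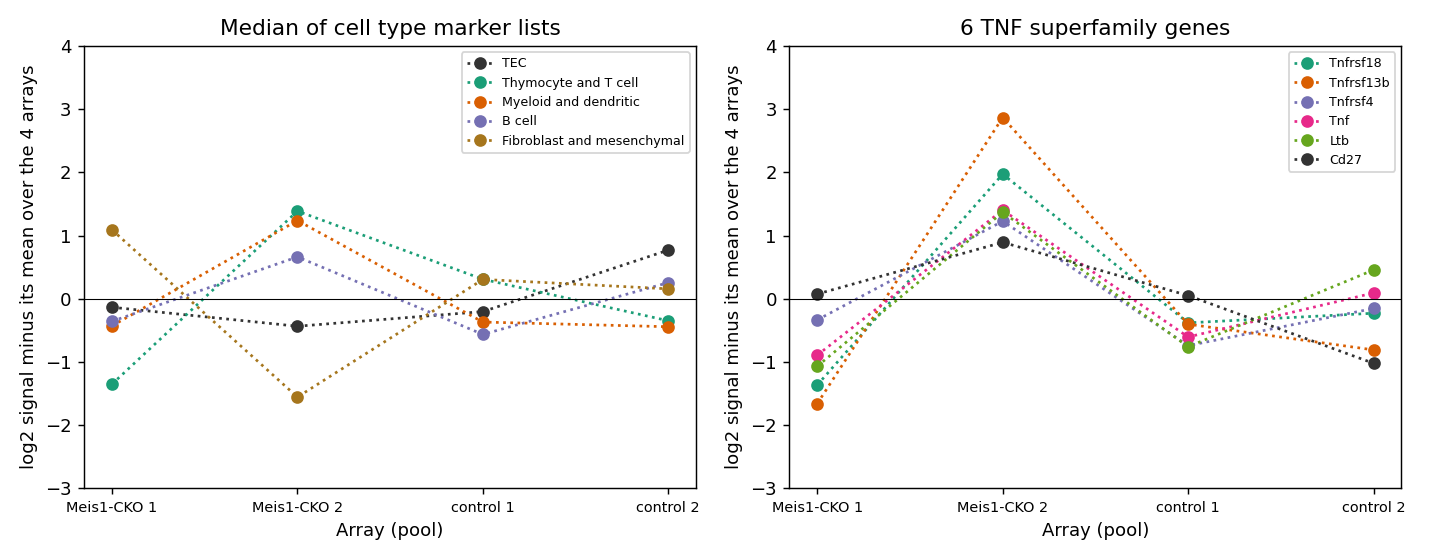
Median log2 signal of 5 marker lists (left) and log2 signal of 6 TNF superfamily genes chosen after their values were seen (right), each minus its mean over the 4 arrays. The medians of the leukocyte lists and the 6 genes peak in Meis1-CKO 2, and the fibroblast list is lowest there. The 6 are among the 8 members highest in that array, so their peak followed from the choice. By summed level, the thymocyte and B cell lists were highest in control 1.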

How the data were processed

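Gene expression was measured on 4 single-colour Agilent arrays (Cy3, cDNA amplified from 10 ng of RNA), 1 for each pool. The deposited scanner files hold linear intensity values. Per the file headers, Agilent Feature Extraction 9.5.3.1 subtracted the background, detrended each array and replaced low values by surrogates, with no scaling between arrays. The deposited value table holds log2 values. Set against the scanner values over 20826 probes, differences between its columns had a slope and a correlation of 1 with those of the 75th-percentile scaling, every row had a median of 0 over the 4 columns, and the column medians were -0.06 and -0.12 for Meis1-CKO and 0.04 and 0.09 for control, so scale, centring and direction were settled from the values.

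Levels are log2 processed signals from which the 75th percentile of the array's probe spots was subtracted. The 1639 control spots and the 63 to 78 outlier spots of each array were left out, and repeated spots were averaged. Testing required a probe well above background in both pools of a genotype (or of both), and the probe with the highest mean stood for its gene, which gave 16813 features. The test was limma 3.58.1 (lmFit, eBayes; R 4.3.3) without a block, adjusted by Benjamini-Hochberg across all features, at a threshold of 0.05. Moderated degrees of freedom were 5.52, so precision is limited by the number of arrays. No spot was saturated. The alternatives were quantile normalization, normexp with an offset of 50, the value table, other filters and probe rules, a test per probe, each array left out, and the replicate number as a block.

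Slide, scan and replicate number coincide. The labels tie no number to a shared day or litter, and with 2 pairs the deviations of same-numbered arrays correlated at 0.131, so the block is an alternative.

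Gene names are those of the array files; RefSeq names (GRCm38.p6) were used to update other genes. Probe coordinates are mm9 from the files. Every member was accounted for. TEC-related members are described whatever their values, with up to 6 members in each direction that were above background on all 4 arrays with groups that did not overlap. Signalling and TEC lists are given by counts, up to 4 members with the largest difference and Aire, Relb, Nfkb2 and Traf3. The members and lists were chosen with earlier results of these data known. Promoter sequences come from RefSeq, with 33 of 44 genes matched.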

Additional observations from a re-analysis of the deposited data

How the results depend on the processing

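The counts of TNF superfamily genes called by limma were 0 higher and 0 lower under each alternative that kept all 4 arrays (quantile, normexp, the value table, both filters, the mean of probes, a test per probe and the replicate block, with 0 and 0 for all features too). With the replicate block the median of the 36 members was -0.07, and the block changed no call. With 1 array left out, the range of features called was 0 to 191 higher and 0 to 111 lower, the highest without Meis1-CKO 1, and 1 and 1 without Meis1-CKO 2. Members called were 0 to 1 higher and 0 to 0 lower, and the median of the members ran from -0.28 to 0.0438. Of 30 described genes, 13 kept their sign throughout. With 1 array left out, their ranges were -1.48 to -0.0486 for Tnfsf11, 0.11 to 1.68 for Tnfrsf4, 0.00577 to 0.60 for Tnfrsf1b, 0.0138 to 0.78 for Tnfsf12, 0.38 to 1.90 for Tnfsf14, 0.43 to 1.51 for Cd27, -1.65 to -0.33 for Tnfrsf10b, -1.20 to -0.28 for Tnfrsf21, -0.62 to -0.19 for Tnfrsf22, -0.63 to -0.23 for Tnfsf12-Tnfsf13, -0.67 to -0.35 for Edar, 1.11 to 2.10 for Tnfsf18 and 2.56 to 2.95 for Cd40lg. On the probes tested, the groups of Cd27, Tnfrsf10b, Tnfrsf21, Edar, Tnfsf12-Tnfsf13, Tnfrsf22, Cd40lg and Tnfsf18 did not overlap. Leaving out 1 array could not turn their sign there, so their place among the 13 supports nothing further. On the other probes of Tnfrsf10b the groups overlapped. With 1 array left out the sign turned for 17, and the cause was not tested. Their ranges were -0.50 to 0.69 for Cd40, -0.47 to 0.0748 for Cd70, -1.25 to 0.88 for Eda, -0.70 to 0.35 for Fas, -0.55 to 0.0797 for Lta, -0.92 to 1.52 for Ltb, -0.35 to 0.39 for Ltbr, -1.66 to 0.0906 for Ngfr and -0.64 to 1.66 for Tnf. They were -0.63 to 0.0391 for Tnfrsf11a, -1.36 to 0.0161 for Tnfrsf11b, -0.67 to 0.0486 for Tnfrsf12a, -1.05 to 3.47 for Tnfrsf13b, -1.06 to 2.28 for Tnfrsf18, -1.12 to 0.87 for Tnfrsf19, -0.59 to 1.08 for Tnfrsf1a and -0.86 to 1.35 for Tnfsf10. The 3.47 of Tnfrsf13b was without Meis1-CKO 1, the array where it read lowest. With all arrays kept, Ltbr turned to -2.12e-05 under quantile normalization, and under normexp Tnfsf10 turned to -0.00699 and Tnfrsf19 to 0.00363. Also under normexp, Cd40lg stood at 0.25 and Tnfsf18 at 0.21, against 2.75 and 1.60. Tnfsf14, Tnfsf11 and Edar stood at 0.37, -0.27 and -0.13, against 1.14, -0.76 and -0.51. Tnfrsf11a and Ltbr moved the other way, farther from 0. Without a filter the median of all features moved to -0.16, against -0.05 with it. Dim probes limit Cd40lg, Tnfsf18, Tnfsf14, Tnfsf10, Eda and Tnfrsf19, whose signals were not well above background on at least 1 array.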
